A study of Mus musculus with 5 samples.

Results

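Alcohol dehydrogenases (Adh), aldehyde dehydrogenases (Aldh), carboxylesterases (Ces) and flavin-containing monooxygenases (Fmo) were examined in Akt/Notch liver tumours with and without late Prox1 overexpression. Members were all genes whose symbol begins with Adh, Aldh, Ces or Fmo and a digit and whose mean normalised count over the 5 libraries was at least 10. Of 55 such genes in the table (7 Adh, 21 Aldh, 20 Ces and 7 Fmo), 45 reached that mean (6 Adh, 20 Aldh, 14 Ces and 5 Fmo), out of 17105 genes of the whole table that did. The other 10 were Adh6a, Aldh3b2, Ces1h, Ces2b, Ces2d-ps, Ces2f, Ces4a, Ces5a, Fmo6 and Fmo9, of which Fmo6 and Fmo9 had no read in any library. The member nearest to the minimum was Adh6b, with a mean of 13.0, and the nearest gene under it was Ces4a, with a mean of 5.74. Both group means were at least 10 for 43 members, the exceptions being Adh6b and Aldh3a1.

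RNA-seq was done on dissected tumours of female C57BL/6N mice that had been injected at 8 weeks of age through the tail vein with transposon plasmids, a procedure that delivers DNA to hepatocytes. Both groups received Akt and the intracellular domain of Notch1 (NICD), the latter with the doxycycline-responsive activator rtTA. The 3 Prox1 OE libraries came from tumours that also carried FLAG-tagged mouse Prox1 with GFP behind a doxycycline-responsive (Tre) promoter, and the 2 Control libraries from tumours with the same plasmid lacking Prox1. All mice received doxycycline food (6.25%) from day 21, so that Prox1 was switched on from week 3 to week 4 in formed tumours. Tissue was taken after that week or at a humane endpoint, and the labels do not say which applied to which tumour, nor whether replicates were separate mice, so that p-values measure the spread between these libraries. Totals were 48740863 to 56629477 reads per library, and 3 reads, taken as the floor, were worth 2.46 to 3.54 normalised counts (counting error only). For Prox1 itself, Control libraries held 4153 and 4664 normalised counts, below the 48090, 11113 and 8231 of the Prox1 OE libraries. Prox1 OE replicate 1 stood far above the others, and the log2 fold change of 1.90 did not pass the threshold (limma adjusted p 0.061). It was 1.12 once replicate 1 was left out (limma adjusted p 0.0056).

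These 4 families carry out much of the liver's oxidation and hydrolysis of small molecules. Alcohol dehydrogenases turn alcohols such as ethanol and retinol into aldehydes, and aldehyde dehydrogenases turn aldehydes into acids, including acetaldehyde into acetate, retinaldehyde into retinoic acid and the aldehydes that arise when amino acids and folate are broken down. Carboxylesterases cut esters and amides of drugs and of stored lipid, and in mice they form a large gene cluster. Flavin-containing monooxygenases add oxygen to nitrogen and sulphur atoms of drugs and dietary amines. Differentiated hepatocytes are the main site of most of these enzymes, whereas some members, among them Aldh1a2, are better known from mesenchymal, mesothelial or epithelial cells.

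The upstream sequences of members with contrasting changes are shown first, because the Ces genes moved together while Aldh1a2 and Fmo2 moved the other way. They are the 250 bases before the start of transcription in RefSeq (build GRCm38.p6), in which 33 members had an entry. Ces3b, Ces2c and Ces2a had the largest log2 fold changes of their family, Ces1c had its highest level per kilobase, and Aldh1a2 and Fmo2 were lower in Prox1 OE. Their windows were chr8:105083505-105083752 (plus strand), chr8:104846818-104847067 (plus strand), chr8:104733753-104734002 (plus strand), chr8:93131284-93131533 (minus strand), chr9:71215539-71215788 (plus strand) and chr1:162898759-162899008 (minus strand). None overlapped an annotated exon, once 2 bases next to the start of Ces3b had been left off. Capitals mark matches, on either strand, to TATAAA of the core promoter, the CCAAT box, or core letters of sites for the liver factors HNF1 (GTTAAT), C/EBP (TTGCNNAA) and HNF4 (CAAAGTCCA) and the Notch partner RBPJ (GTGGGAA). No match overlapped another in these windows.
Ces3b: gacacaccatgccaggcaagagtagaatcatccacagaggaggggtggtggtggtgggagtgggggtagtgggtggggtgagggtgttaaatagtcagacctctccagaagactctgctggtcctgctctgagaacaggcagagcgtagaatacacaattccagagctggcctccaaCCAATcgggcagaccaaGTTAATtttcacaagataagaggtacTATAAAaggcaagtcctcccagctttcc
Ces2c: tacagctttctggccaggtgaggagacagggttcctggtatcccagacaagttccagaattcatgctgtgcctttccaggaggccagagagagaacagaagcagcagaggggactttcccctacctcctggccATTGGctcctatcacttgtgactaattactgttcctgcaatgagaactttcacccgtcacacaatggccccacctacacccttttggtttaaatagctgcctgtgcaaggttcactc
Ces2a: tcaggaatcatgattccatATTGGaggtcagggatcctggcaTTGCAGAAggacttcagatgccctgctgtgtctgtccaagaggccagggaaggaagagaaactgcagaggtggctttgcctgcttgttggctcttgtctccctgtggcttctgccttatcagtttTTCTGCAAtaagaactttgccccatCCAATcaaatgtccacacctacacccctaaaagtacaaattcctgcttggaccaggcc
Ces1c: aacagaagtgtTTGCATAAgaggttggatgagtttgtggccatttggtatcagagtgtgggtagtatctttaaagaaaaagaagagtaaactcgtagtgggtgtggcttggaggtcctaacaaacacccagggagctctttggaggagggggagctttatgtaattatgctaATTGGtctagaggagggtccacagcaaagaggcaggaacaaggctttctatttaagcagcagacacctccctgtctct
Aldh1a2: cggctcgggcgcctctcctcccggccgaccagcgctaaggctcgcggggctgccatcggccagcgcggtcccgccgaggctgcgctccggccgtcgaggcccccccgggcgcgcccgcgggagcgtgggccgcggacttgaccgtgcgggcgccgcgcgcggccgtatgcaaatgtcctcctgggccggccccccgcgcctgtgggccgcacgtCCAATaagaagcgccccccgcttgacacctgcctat
Fmo2: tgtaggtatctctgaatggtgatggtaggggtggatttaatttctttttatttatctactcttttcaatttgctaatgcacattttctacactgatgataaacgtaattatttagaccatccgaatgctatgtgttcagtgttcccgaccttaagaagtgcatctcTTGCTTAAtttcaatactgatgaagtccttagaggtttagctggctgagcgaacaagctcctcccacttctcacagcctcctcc

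Over the 33 windows, CCAAT occurred in 22 (66.7%), against 33.9% of all 32851 windows in the table. TTGCNNAA occurred in 8 (24.2%, against 9.56% of all windows), and TATAAA in 5 (15.2%, against 12.4%). The TATAAA matches began 30 (Ces3b), 26 (Ces1g), 244 (Aldh1a7), 202 (Adh7) and 195 (Fmo5) bases before the start. Those of Ces1g, Adh7 and Fmo5 were on the opposite strand. GTTAAT was found in 2 windows (6.06%, against 6.43%), GTGGGAA in 1 (3.03%, against 5.42%) and CAAAGTCCA in 0 (against 0.384%). Of the 28 windows of genes that rose, 20 held CCAAT, and the windows of the falling genes Aldh1a2 and Fmo2 held CCAAT and TTGCNNAA respectively, while that of Aldh18a1 held none of the 6 motifs. Of the 33 windows, 18 were free of annotated exons. In Ces1b and Ces1c the TTGCNNAA match lay in a stretch that both windows hold, so windows of gene copies are not independent. Each member gave 1 window, while the comparison counted every window. These matches describe the letters in the window only, and the shares were not tested.

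Most members were higher in Prox1 OE. Of the 45 members, 34 (75.6%) had a limma adjusted p under 0.05 with a higher level in Prox1 OE and 4 (8.89%) with a lower level, whereas of all 17105 genes tested 17.1% were called higher and 16.2% lower (33.3% in either direction). The median log2 fold change was 1.39 over the members and -0.02 over all genes tested. All 34 members called higher had every Prox1 OE library above both Control libraries, and groups did not overlap for 40 of the 45 members, as for 63.3% of all genes tested. The higher members were 5 of 6 Adh, 14 of 20 Aldh, 14 of 14 Ces and 1 of 5 Fmo genes, with family medians of 1.50, 1.00, 1.93 and 0.25 on the log2 scale. The lower members were Aldh1a2, Aldh18a1, Fmo2 and Aldh3a1, the last of which reached the minimum mean through the Control libraries alone. Among the 7 that did not pass the test were Adh6b, Aldh1a3, Aldh1l2, Aldh3b1, Fmo1 and Fmo4.

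The number of calls depended on the Control libraries more than the direction did. Without Control replicate 1, 15 members were called higher and 3 lower, and without Control replicate 2, 26 and 3. Over all genes tested, those fits called 681 higher and 477 lower, and 1436 higher and 834 lower. The lone Control library was then assumed to vary like the others. Under scaling by total count, which moved the median of all genes to -0.44 on the log2 scale, 29 members were called higher and 7 lower, and among all genes 1475 higher and 6833 lower in place of 2933 and 2769.

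**Figure D1:**
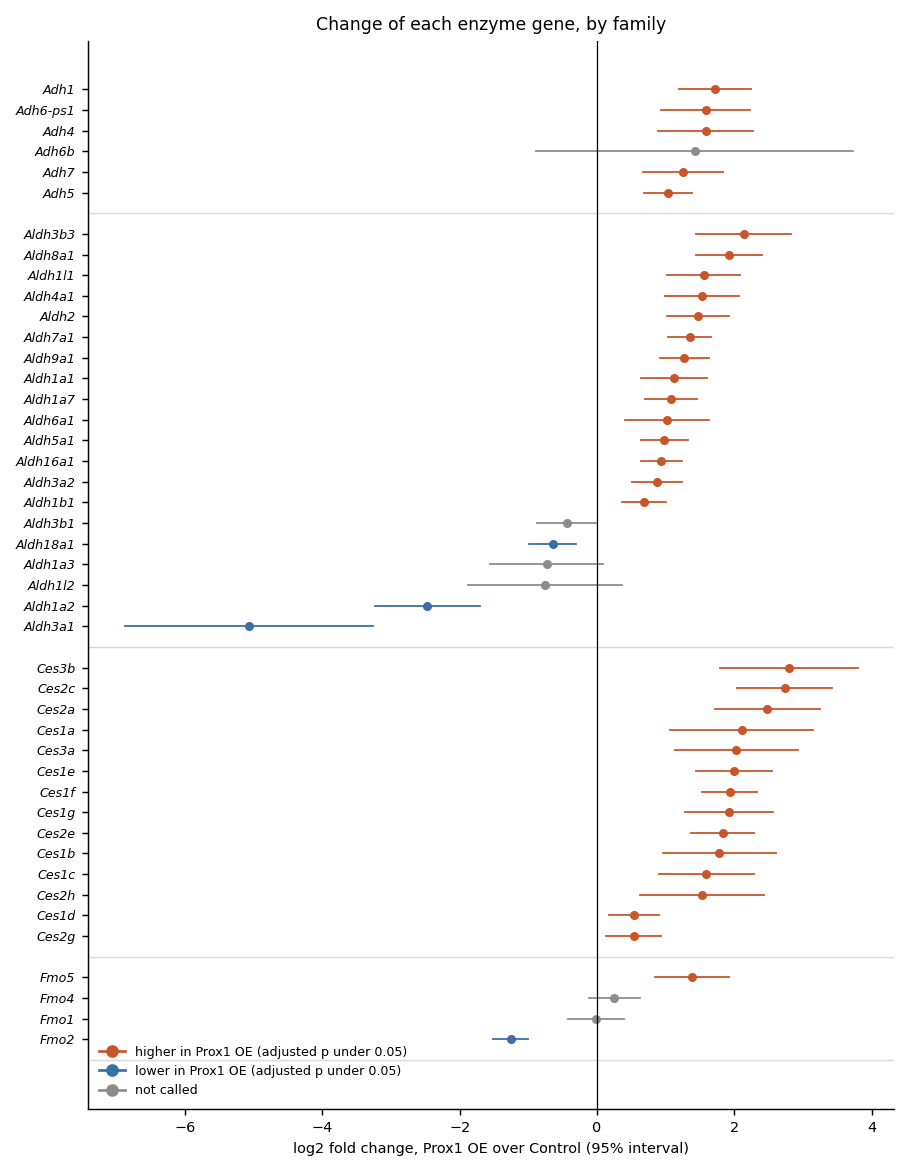
Log2 fold change of each member described here, Prox1 OE (3 libraries) over Control (2 libraries), on the log2(normalised count + 1) scale, with bars for the 95% interval of the limma fit. The 34 members called higher are in orange, the 4 called lower in blue and those not called in grey. All 14 Ces genes lie to the right of 0, and Adh6b has an interval that spans 0 widely.

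Markers of several cell types moved with the members, and in bulk tissue fewer cells of a type and less RNA per cell cannot be told apart. Of 12 hepatocyte markers, 9 were called higher and 0 lower, with a median log2 fold change of 1.42, and their summed normalised count was 896440.5 to 1398788 in Control and 2805864 to 4246939 in Prox1 OE. The hepatocyte markers Alb, Hnf4a and Hpd had log2 fold changes of 1.69, 1.15 and 2.81, while those of Fgb (0.41) and Serpina1c (0.61) did not pass the test. Of 11 cholangiocyte markers tested, 8 were called lower and 0 higher, with summed counts of 779665 to 849144 in Control and 537500 to 725203 in Prox1 OE. Most of that sum was Spp1 (784749 and 712010 in Control), which was not called (log2 fold change -0.34, limma adjusted p 0.51), and the median of the list was -1.21. Both zones of the liver lobule were represented, with 8 of 10 pericentral and 8 of 10 periportal hepatocyte genes called higher (median log2 fold changes of 1.63 and 1.92). Their part in the changes of the enzyme genes was not tested.

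Among the alcohol dehydrogenases, Adh1, Adh4, Adh5, Adh7 and Adh6-ps1 rose together, by 1.03 to 1.72 on the log2 scale. All Adh genes lie side by side on chromosome 3 (mm10). Adh1 (chr3:138260991-138290698), the class I enzyme that oxidises ethanol, had 43399 and 55385 normalised counts in Control replicates 1 and 2 and 150740, 145431 and 191244 in Prox1 OE replicates 1, 2 and 3. All Prox1 OE libraries were at least 2.6 times the higher Control library, and the fitted change was 3.29-fold (95% interval 2.29 to 4.73, limma adjusted p 0.0030). Adh5, the glutathione-dependent formaldehyde dehydrogenase found in nearly all cells, had 7407 and 8755 in Control and 15214, 15566 and 18957 in Prox1 OE. The libraries within each group lay close together, and the fold of 2.05 (1.61 to 2.61, limma adjusted p 0.0035) was the smallest among Adh genes. Adh4, the class II enzyme, had 757 and 1043 in Control and 1898, 2511 and 3959 in Prox1 OE, a fold of 2.99 (1.85 to 4.84, limma adjusted p 0.0078). Adh6-ps1, a pseudogene by its symbol, had 110 and 131 in Control and 293, 310 and 518 in Prox1 OE, a fold of 3.00 (1.91 to 4.71, limma adjusted p 0.0064). Adh7, the class IV enzyme with high activity on retinol, rose by 1.25 on the log2 scale (SE 0.25, limma adjusted p 0.0099).

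Adh6b was the lone member of the family that did not pass the test. It had 15.6 and 0.848 normalised counts in Control and 28.6, 7.08 and 12.7 in Prox1 OE, so that the groups overlapped and Control replicate 2 rested on 1 read. Its log2 fold change of 1.42 had an SE of 0.99 and a limma adjusted p of 0.30. Without Control replicate 2 it was -0.16.

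Per kilobase of annotated exon, Adh1 made up nearly the whole family. Its share of the summed normalised count per kilobase was 90.9% and 91.2% in Control and 94.1%, 93.2% and 93.0% in Prox1 OE. The share of Adh5 was 6.41% and 5.95% in Control and 3.92%, 4.12% and 3.81% in Prox1 OE. Its level was therefore higher and its share lower in every Prox1 OE library than in either Control library. The summed level of the family was 24292 ± 4117 per kilobase (SD, n = 2) in the Control group against 77917 ± 12320 (SD, n = 3) in the Prox1 OE group, 3.21 times as high. Without Control replicate 1, 0 of 6 Adh genes were called by limma, with fitted log2 fold changes of 0.91 for Adh5 (limma adjusted p 0.054) and 1.54 for Adh1 (limma adjusted p 0.058). At an unadjusted p under 0.05, that fit held the 5 Adh genes other than Adh6b, against 27.5% of all genes tested (4699 of 17105). Adh6b also passed there, with its Control value then resting on 1 read. With all libraries, edgeR and DESeq2 each called 5 of 6, as limma did.

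**Figure D2:**
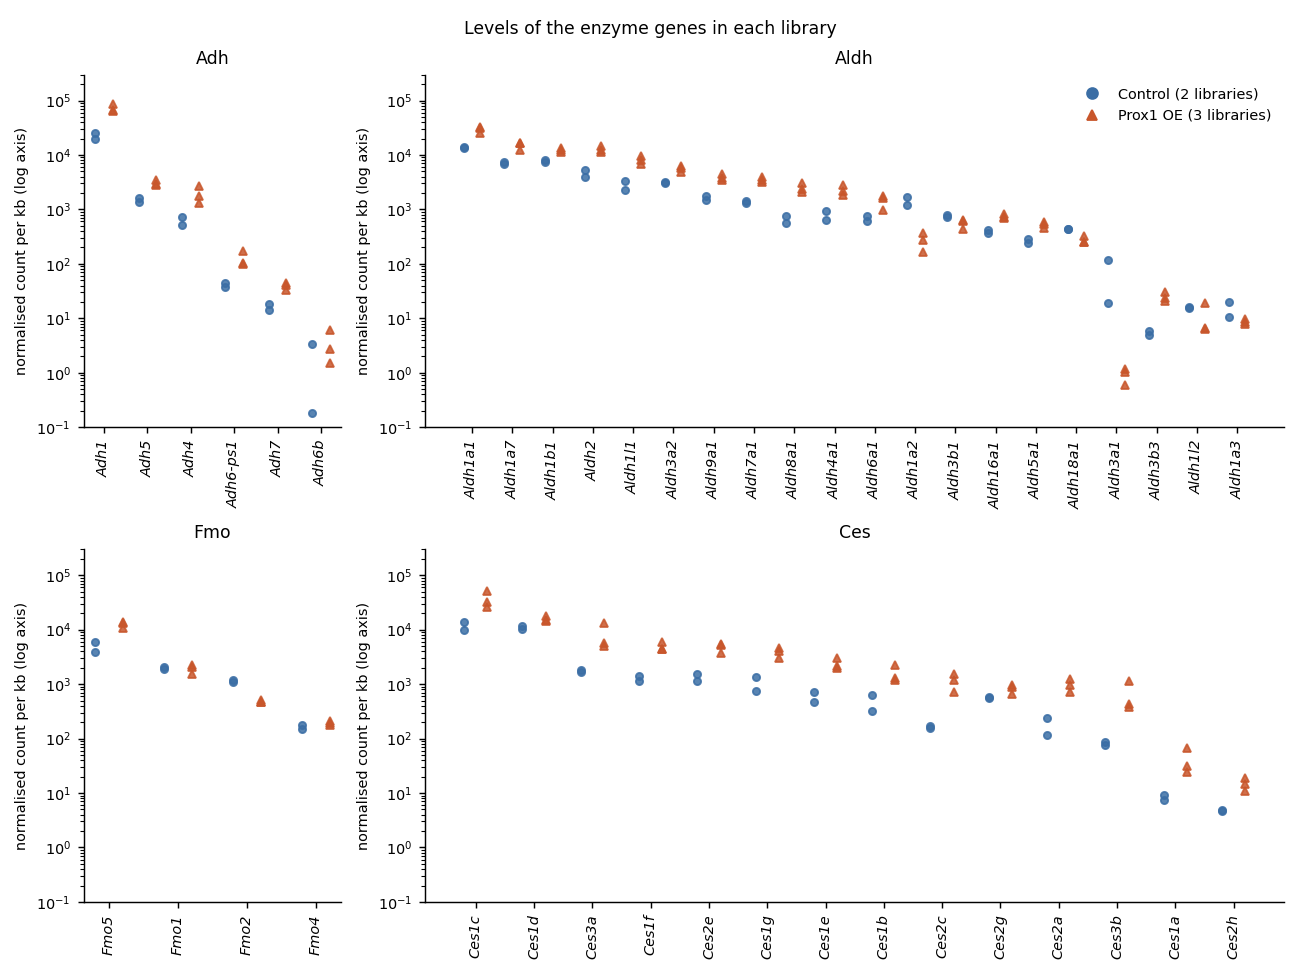
Normalised count per kilobase of exon (log axis) of each member described here in each library, by family, ordered by mean level, with circles for the 2 Control and triangles for the 3 Prox1 OE libraries. Triangles lie above both circles for all 14 Ces genes and below both for Aldh1a2, Aldh3a1 and Fmo2, and Adh6b has a wide spread within both groups.

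Aldh1a1, Aldh1a2 and Aldh1a3 make retinoic acid from retinaldehyde, and the Aldh1a genes did not all move one way. Aldh1a1 (chr19:20492715-20643465), the main cytosolic form of the liver, had 66616 and 68795 normalised counts in Control and 161290, 127306 and 154067 in Prox1 OE. All Prox1 OE libraries were above both Control libraries, with a fold of 2.17 (1.55 to 3.02, limma adjusted p 0.0073). Its neighbour and close paralogue Aldh1a7 had 14022 and 15198 in Control and 33555, 25847 and 33882 in Prox1 OE, a fold of 2.11 (1.62 to 2.76, limma adjusted p 0.0041). Aldh1a2 (chr9:71215789-71296243), the form that supplies retinoic acid in the embryo and in mesothelial and stromal cells, went the other way, with 3758 and 2757 in Control and 847, 630 and 366 in Prox1 OE. The highest Prox1 OE library was 0.307 times the lower Control library, and the fitted fold was 0.180 (0.106 to 0.308, limma adjusted p 0.0031). Aldh1a3, known from epithelia and tumours, had means of 70.0 ± 30.5 (SD, n = 2) in the Control group against 39.8 ± 3.79 (SD, n = 3) in the Prox1 OE group, which did not pass the test (log2 fold change -0.73, limma adjusted p 0.14). Under total-count scaling Aldh1a3 was called lower. Of the summed level of the 4 genes per kilobase, Aldh1a2 took 7.56% and 5.41% in Control and 0.759%, 0.721% and 0.338% in Prox1 OE. Without either Control library the call of Aldh1a1 was lost, at log2 fold changes of 1.09 and 1.14 (limma adjusted p 0.12 and 0.083), and without Control replicate 1 that of Aldh1a7, at 1.02 (limma adjusted p 0.060).

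Some markers of mesothelium, the cell layer that covers the liver, were lower in Prox1 OE, as Aldh1a2 was. Of 7 mesothelial markers tested, 5 were called lower and 0 higher, with summed normalised counts of 9064 to 11233 in Control and 1972 to 2163 in Prox1 OE, most of it from Krt19, which is also on the cholangiocyte list. Mesothelin (Msln) had 123 and 55.9 in Control and 1.02, 3.54 and 1.16 in Prox1 OE, and Upk1b had 60.0 and 21.2 in Control and 0 in each Prox1 OE library. Msln, Upk1b, Upk3b and Lrrn4 reached the mean of 10 through the Control libraries alone, so that their results are given as a description. Among the markers called lower, Krt19 and Wt1 were the ones over 10 in every library. Wt1 had 77.2 and 64.4 in Control and 40.9, 13.0 and 24.3 in Prox1 OE. Gpm6a, with a change of -0.33 on the log2 scale (limma adjusted p 0.31), and Lrrn4, with -1.17 (limma adjusted p 0.16), did not pass the test. Bnc1, with 8.22 and 0 in Control and 0 in every Prox1 OE library, overlapped between groups and, with a mean under 10, was not tested. The part of these cells in the fall of Aldh1a2 was not tested.

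Other retinoid genes mostly rose. Of 19 genes tested among enzymes and binding proteins of retinoid metabolism, 12 were called higher and 1 lower, with a median log2 fold change of 0.72. Rdh16 and Rdh7, which oxidise retinol, had log2 fold changes of 2.00 and 1.51, the retinol carrier Rbp4 1.67, and Lrat, which stores retinol as ester and marks stellate cells, 1.09 (limma adjusted p 0.0047). The called decrease was in the retinoic acid receptor Rarg (log2 fold change -0.52, limma adjusted p 0.022). Rarb (-0.28, limma adjusted p 0.14) was not called, though every Prox1 OE library lay below both Control libraries. The same held for Stra6 and Crabp2, which had means under 10 and were not tested. Crabp2 had 10.7 and 10.2 in Control and 1.02, 5.90 and 2.31 in Prox1 OE. Crabp1, also not tested, overlapped between groups. Cyp26a1, which degrades retinoic acid and is induced by it, had 268 and 417 normalised counts in Control and 310, 489 and 535 in Prox1 OE, with overlapping groups (log2 fold change 0.37, limma adjusted p 0.35).

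Aldehyde dehydrogenases that finish amino acid breakdown were higher. Aldh8a1 (chr10:21377291-21396585), of the kynurenine branch of tryptophan breakdown, had 2418 and 3314 normalised counts in Control and 10191, 9060 and 13505 in Prox1 OE. The groups were well apart, with a fold of 3.80 (2.73 to 5.30, limma adjusted p 0.0024). Aldh7a1 (lysine), Aldh6a1 (valine), Aldh5a1 (the GABA product succinic semialdehyde) and Aldh9a1 (carnitine synthesis and amine oxidation) rose by 1.35, 1.02, 0.98 and 1.27 on the log2 scale. The call of Aldh6a1 was lost under total-count scaling (0.59, limma adjusted p 0.064), without the trend, and without Control replicate 1 (0.87), Control replicate 2 (1.18) or Prox1 OE replicate 3 (0.91), and that of Aldh5a1 without Control replicate 1 (0.85, limma adjusted p 0.052). The proline enzymes were opposed. Aldh4a1, of proline breakdown, had 3856 ± 1071 (SD, n = 2) in the Control group against 11072 ± 2542 (SD, n = 3) in the Prox1 OE group, a change of 1.53 on the log2 scale (limma adjusted p 0.0040). Aldh18a1, of proline synthesis, had 1767 ± 5.42 (SD, n = 2) in the Control group against 1135 ± 166 (SD, n = 3) in the Prox1 OE group, a change of -0.65 on the log2 scale (limma adjusted p 0.015). Aldh18a1 was not called without either Control library or without Prox1 OE replicate 2, with log2 fold changes of -0.65, -0.65 and -0.59. For Aldh4a1, 27.5% of its 100-base transcript windows were shared with the overlapping gene model Gm21969, so that its count may be split. Exons of 12 members, Adh1 and Aldh2 among them, also overlap a gene on the opposite strand, and whether counting used the strand is not known here.

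Among enzymes of acetaldehyde and folate, the cytosolic and mitochondrial forms did not all move alike. Aldh2, the mitochondrial enzyme that clears acetaldehyde, rose by 1.47 on the log2 scale, with 23639 ± 4557 normalised counts (SD, n = 2) in the Control group against 65315 ± 9089 (SD, n = 3) in the Prox1 OE group. Aldh1b1, its mitochondrial relative ranking 3 in the family by level per kilobase, had 16994 and 18287 in Control and 26392, 31197 and 27808 in Prox1 OE, a fold of 1.61 (1.29 to 2.02, limma adjusted p 0.010). All Prox1 OE libraries were higher, but Aldh1b1 was not called under total-count scaling (log2 fold change 0.26, adjusted p 0.18 by limma) or without either Control library. Aldh1l1, the cytosolic 10-formyltetrahydrofolate dehydrogenase, rose by 1.56 on the log2 scale (SE 0.23, limma adjusted p 0.0037). Its mitochondrial counterpart Aldh1l2 had a log2 fold change of -0.75 (SE 0.48, limma adjusted p 0.26), with overlapping groups. Without Prox1 OE replicate 1, Aldh1l2 was called lower, with a change of -1.27 on the log2 scale (limma adjusted p 0.0091). Aldh16a1, a large member of unusual domain structure, rose by 0.94.

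The Aldh3 subfamily has neighbouring genes on chromosomes 11 and 19. Aldh3a1 (chr11:61207537-61218421), an enzyme abundant in cornea and inducible through the aryl hydrocarbon receptor, had 282 and 44 reads in the Control libraries and 2, 1 and 2 in the Prox1 OE libraries. In normalised counts these were 232 and 37.3 against 2.04, 1.18 and 2.31, so that the Control libraries differed from each other several times over while every Prox1 OE library lay at or under the floor. Aldh3a1 reached the mean of 10 through the Control libraries alone, so that its call as lower is given as a description. By summed reads the level was 73.2 times as high in Control (exact 95% interval for counting error only, 31.0 to 227), but Control replicate 1 supplied 282 of the 326 Control reads. With Control replicate 2 alone the ratio was 20.1 (7.98 to 64.8), and with Control replicate 1 alone 125 (52.8 to 387). Aldh3a2 (chr11:61223417-61267464), the fatty aldehyde dehydrogenase of the endoplasmic reticulum, rose from a mean of 17322 ± 650 (SD, n = 2) to one of 31925 ± 4056 (SD, n = 3), with a change of 0.87 on the log2 scale (limma adjusted p 0.0065). It was not called without Control replicate 1 (0.91, limma adjusted p 0.070) or Control replicate 2 (0.84, limma adjusted p 0.069). On chromosome 19, Aldh3b3 (chr19:3958645-3972103), which acts on lipid aldehydes, had 20.5 and 24.6 in Control and 85.9, 99.1 and 125 in Prox1 OE, a fold of 4.39 (2.72 to 7.08, limma adjusted p 0.0033). Its neighbour Aldh3b1 had a log2 fold change of -0.44 (SE 0.18) with every Prox1 OE library below both Control libraries, but did not pass the test (limma adjusted p 0.10). Under total-count scaling it was called lower, at -0.87 (limma adjusted p 0.014). Aldh3b3 shared 6.73% of its windows with other Aldh3b genes.

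The whole Aldh family had a summed level of 47493 ± 3202 per kilobase (SD, n = 2) in the Control group against 99996 ± 9943 (SD, n = 3) in the Prox1 OE group, 2.11 times as high. Without Control replicate 1, 10 of 20 Aldh genes were called in either direction and without Control replicate 2, 12, in place of 17.

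**Figure D3:**
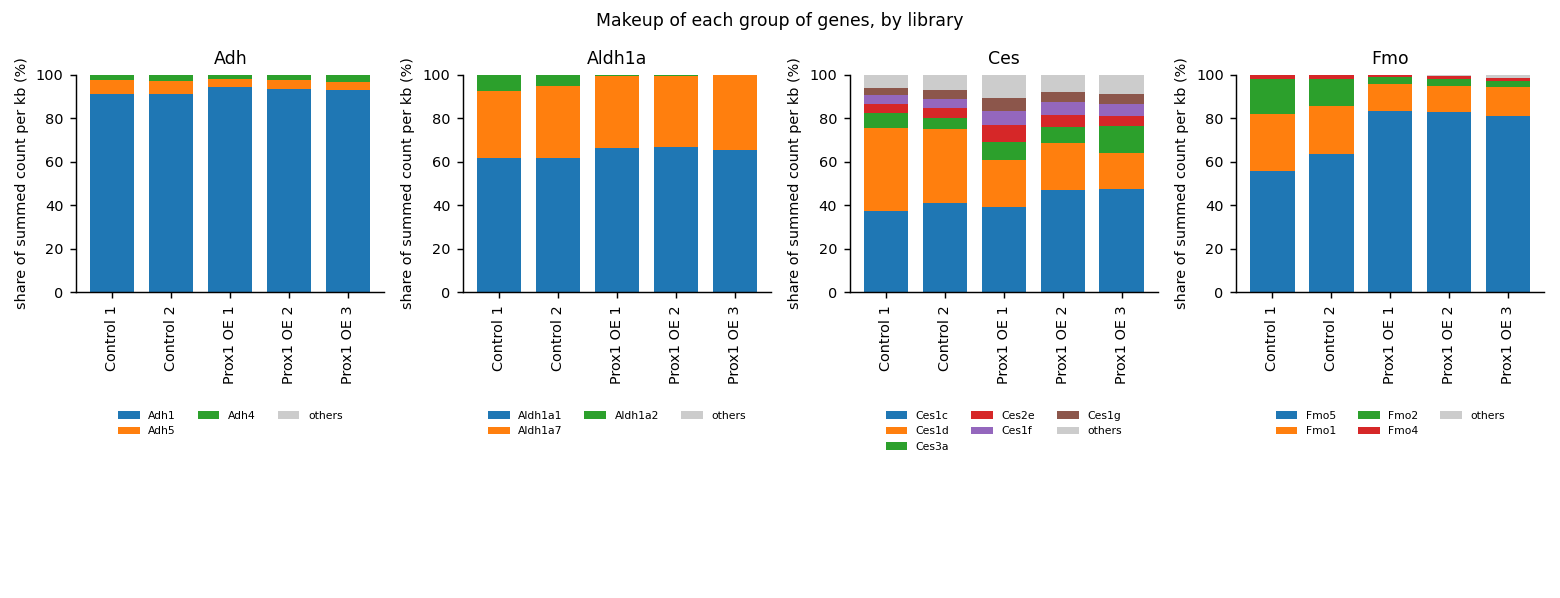
Share of the summed normalised count per kilobase (%) that each gene took within the Adh, Aldh1a, Ces and Fmo genes, as stacked bars for each of the 5 libraries, with the remaining genes in grey. Aldh1a2 fell from 7.56% and 5.41% in Control to at most 0.759% in Prox1 OE, and Fmo5 took 55.5% and 63.6% in Control and 81.0% to 83.1% in Prox1 OE.

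All 14 carboxylesterases were called higher in Prox1 OE, in a graded manner. Log2 fold changes ran from 0.53 (Ces2g) to 2.79 (Ces3b), and 12 of the 14 were at least 1. The calls of Ces1d and Ces2g were each lost in 8 of 16 alternatives, and that of Ces2h in 4, and with no filter on low genes 12 of 14 were called. The Ces1 genes hydrolyse drugs and lipid esters. Ces1c (chr8:93099015-93131283), the secreted plasma esterase of mice and the highest of the family per kilobase, had 23143 and 32080 normalised counts in Control and 61622, 75909 and 119186 in Prox1 OE. The groups did not overlap and Prox1 OE replicate 3 was highest, with a fold of 3.02 (1.86 to 4.89, limma adjusted p 0.0077). Ces1d (chr8:93166068-93197838), a lipase that mobilises stored triglyceride for secretion, had 24290 and 27205 in Control and 34929, 35688 and 41772 in Prox1 OE. Its fold of 1.45 (1.13 to 1.86, limma adjusted p 0.032) was small beside those of its neighbours Ces1e (4.00, 2.73 to 5.87), Ces1f (3.82, 2.89 to 5.05) and Ces1g (3.79, 2.43 to 5.90), whose intervals did not overlap its own. Ces1b and Ces1a rose by 1.78 and 2.11 on the log2 scale. Ces1a was low, with 20.5 and 17.0 in Control and 148, 55.5 and 71.8 in Prox1 OE, replicate 1 being highest.

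The Ces2 and Ces3 genes lie farther along chromosome 8. Ces2c (chr8:104847068-104854483), which hydrolyses acylglycerols and drugs, had 366 and 395 normalised counts in Control and 3579, 1637 and 2792 in Prox1 OE. Every Prox1 OE library was more than 4 times the higher Control library, and the fitted fold was 6.66 (4.12 to 10.8, limma adjusted p 0.0024). Ces2a had 280 and 567 in Control and 2291, 1665 and 2907 in Prox1 OE, a fold of 5.58 (3.28 to 9.50, limma adjusted p 0.0030). Ces3b (chr8:105083753-105093929) had 196 and 225 in Control and 1099, 973 and 2895 in Prox1 OE, a fold of 6.93 (3.45 to 13.9, limma adjusted p 0.0042). Its neighbour Ces3a, a triglyceride hydrolase of the liver, had 4769 and 4474 in Control and 14756, 13065 and 34924 in Prox1 OE, a fold of 4.09 (2.19 to 7.61, limma adjusted p 0.0080). In both Ces3 genes Prox1 OE replicate 3 stood above replicates 1 and 2. Ces2e and Ces2h rose by 1.83 and 1.53, and Ces2g by 0.53 (limma adjusted p 0.047). Reads of near-identical copies could be shared, since 13.6% of the 100-base windows of Ces2c, 8.13% of Ces2a and 6.88% and 7.04% of Ces3a and Ces3b occurred in other genes.

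Because the genes rose unequally, the makeup of the family differed between groups. Ces1d took 38.3% and 34.0% of the summed level per kilobase in Control and 21.7%, 21.7% and 16.3% in Prox1 OE. Ces3a took 6.78% and 5.05% in Control and 8.26%, 7.16% and 12.3% in Prox1 OE. The summed level was 30266 ± 4915 per kilobase (SD, n = 2) in the Control group against 81824 ± 22659 (SD, n = 3) in the Prox1 OE group, 2.70 times as high. Under total-count scaling 11 of 14 Ces genes were called, with Ces1d, Ces2g and Ces2h lost at log2 fold changes of 0.11, 0.10 and 1.12 (limma adjusted p 0.52, 0.62 and 0.051). Without Control replicate 1, 7 of 14 were called, Ces1a, Ces1b, Ces1c and Ces3a being among those lost, without Control replicate 2, 10, and without Prox1 OE replicate 3, 11.

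**Figure D4:**
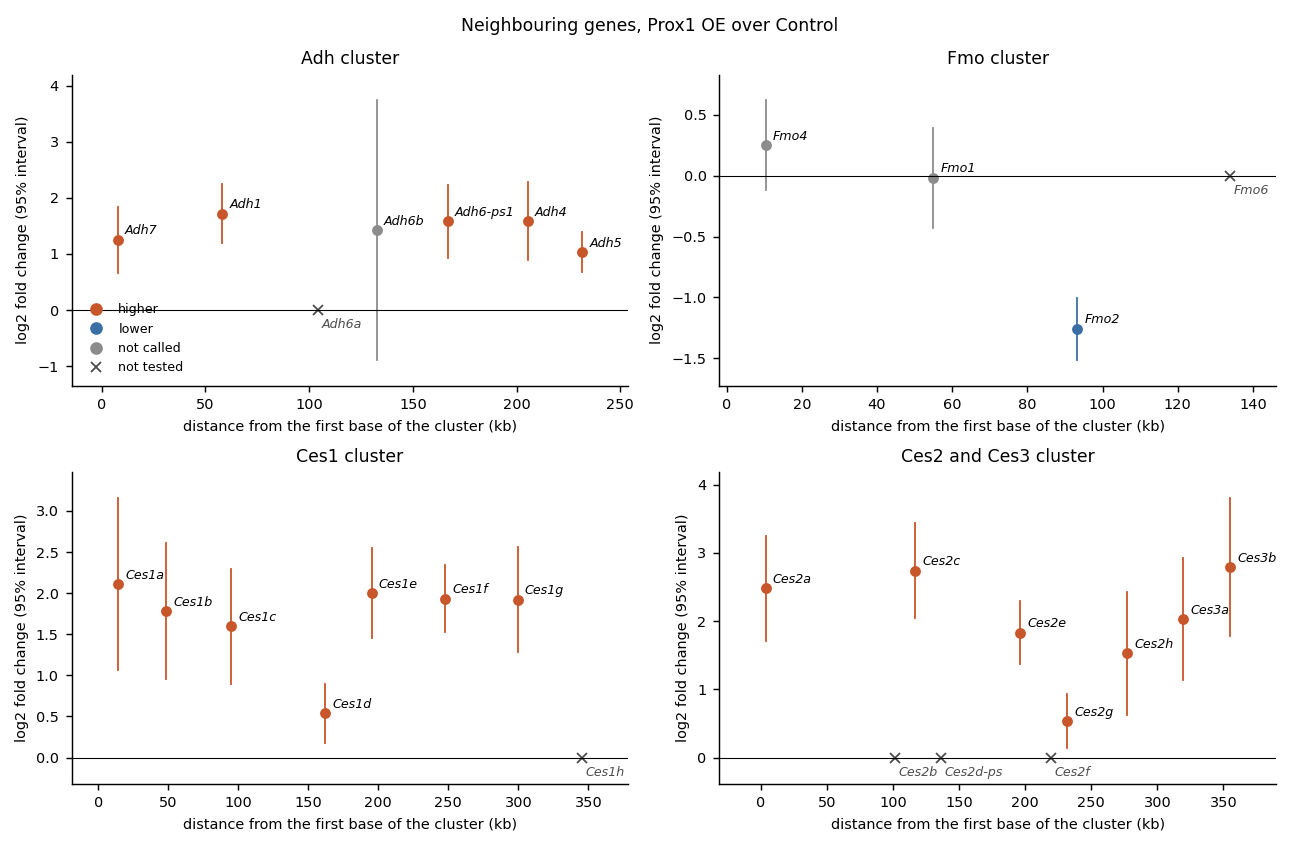
Log2 fold change (with the 95% interval) of neighbouring Adh, Fmo, Ces1 and Ces2/Ces3 genes against their distance from the first base of each cluster (kb). Crosses at 0 are genes below the mean of 10 that were not tested. Ces1d (0.54) and Ces2g (0.53) lie below the other tested genes of their clusters, and Fmo2 (-1.26) lies below its neighbours.

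Other esterases and lipases were mostly higher too. Of 13 tested, 10 were called higher and 0 lower, with a median log2 fold change of 0.78. The paraoxonase Pon1 and the arylacetamide deacetylase Aadac had log2 fold changes of 1.82 and 1.53, hepatic lipase (Lipc) 1.59 and monoglyceride lipase (Mgll) 1.40. Pon2 (0.27), Nceh1 (0.21) and Afmid (0.62) did not pass the test.

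The flavin-containing monooxygenases did not move together. Fmo5 (chr3:97628804-97655282), the member outside the chromosome 1 cluster and the highest per kilobase, had 22114 and 33995 normalised counts in Control and 79044, 61189 and 76127 in Prox1 OE. The groups did not overlap, with a fold of 2.61 (1.80 to 3.79, limma adjusted p 0.0052). Fmo2 (chr1:162874317-162898726), best known from lung, had 6264 and 6633 in Control and 2866, 2635 and 2591 in Prox1 OE. Both groups were tight and far apart, with a fold of 0.418 (0.350 to 0.499, limma adjusted p 0.0018). Fmo1 (chr1:162829561-162866610), an abundant liver and kidney form in mice, had 11751 and 12914 in Control and 13213, 9768 and 13981 in Prox1 OE. Its groups overlapped, and the fold of 0.988 had an interval of 0.744 to 1.31 (limma adjusted p 0.95). Fmo4 had 545 and 664 in Control and 783, 648 and 724 in Prox1 OE, again with overlap, and a fold of 1.19 (0.923 to 1.54, limma adjusted p 0.25). Under total-count scaling the log2 fold change of Fmo4 was -0.18, and Fmo1 was called lower, at -0.45 (limma adjusted p 0.042).

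The makeup of the family followed from these changes. Fmo5 took 55.5% and 63.6% of the summed level per kilobase in Control and 83.1%, 82.7% and 81.0% in Prox1 OE, Fmo1 26.5% and 21.7% against 12.5%, 11.9% and 13.4%, and Fmo2 15.9% and 12.6% against 3.05%, 3.60% and 2.79%. The summed level was 8225 ± 1694 per kilobase (SD, n = 2) in the Control group against 15455 ± 2094 (SD, n = 3) in the Prox1 OE group, 1.88 times as high. Without Control replicate 1, Fmo5 was not called (log2 fold change 1.08, limma adjusted p 0.076) and Fmo2 was the 1 Fmo gene that was.

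Genes that work beside these families were counted from 3 further lists. Of 9 other enzymes of ethanol and acetate, 8 were called higher and 1 lower, with a median log2 fold change of 1.35. Cyp2e1, the microsomal ethanol oxidase, had 14115 and 26844 normalised counts in Control and 43979, 70476 and 112242 in Prox1 OE (log2 fold change 1.85, limma adjusted p 0.014). The cytosolic acetyl-CoA synthetase Acss2 rose by 1.73 and the mitochondrial Acss1 was lower, with 239 and 307 in Control and 138, 73.2 and 102 in Prox1 OE (log2 fold change -1.41, limma adjusted p 0.012). Of 12 other oxidases and reductases, 11 were called higher and 0 lower, with a median of 1.15, among them the aldehyde oxidases Aox1 and Aox3 (1.64 and 1.63), the quinone reductase Nqo1 (1.88) and cytochrome P450 reductase (Por, 0.99). Of 8 nuclear receptors and other regulators known to control such enzymes, 5 were called higher and 0 lower. CAR (Nr1i3), PXR (Nr1i2) and FXR (Nr1h4) had log2 fold changes of 1.66, 1.06 and 0.90. The aryl hydrocarbon receptor Ahr (-0.41, limma adjusted p 0.075), Nrf2 (Nfe2l2, -0.23, limma adjusted p 0.20) and Ppara (0.60, limma adjusted p 0.17) did not pass the test.

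**Figure D5:**
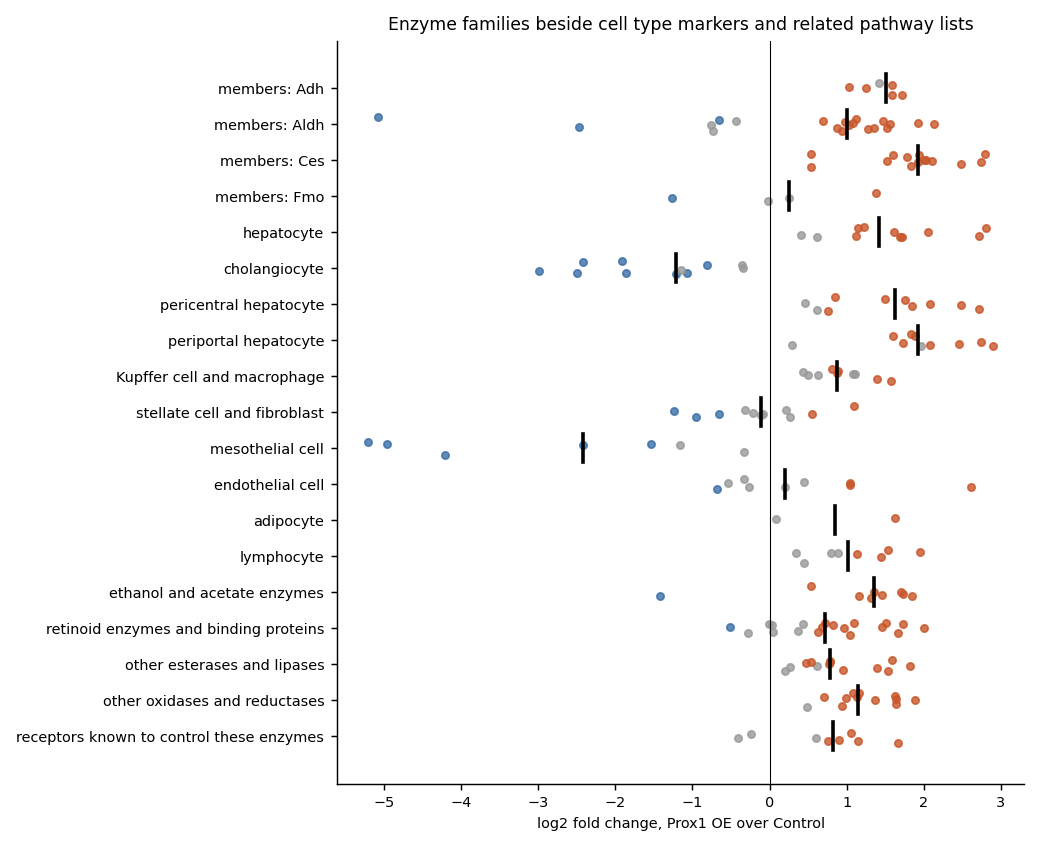
Log2 fold change, Prox1 OE over Control, of the tested genes of the 4 enzyme families described here, of 10 lists of cell type markers and of 5 lists of related genes, with a bar at the median of all tested genes of each list. Orange points were called higher, blue lower and grey not called. The Ces median (1.93) and the hepatocyte marker median (1.42) lie above 0, and the cholangiocyte (-1.21) and mesothelial (-2.41) medians below. The mesothelial median includes Msln, Upk1b, Upk3b and Lrrn4, which reached the mean of 10 through the Control libraries alone.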

How the data were processed

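The authors sequenced strand-preserving (dUTP) libraries as pairs of reads and mapped them with STAR to mm10. The counting tool, its use of strand and its treatment of shared reads were not given in the sources used here. The deposited signal is the normalised count per gene, reads divided by a DESeq2 size factor. Whole reads were recovered for 100% of values (1 read was worth 0.822 to 1.18), within 0.01 read up to 1000 reads and in proportion above. A deposited table of the authors' own comparison (fold changes and p-values) was not used.

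Testing covered the 17105 genes whose normalised counts averaged 10 or more. They were fitted with limma 3.58.1 in R 4.3.3 (lmFit, eBayes with trend) on log2(normalised count + 1), two-sided, with Benjamini-Hochberg adjustment over all genes and a threshold of 0.05. This scale understates changes of low genes, and intervals are at 95%. An exact permutation test of 2 against 3 libraries cannot go below p = 0.1 and was not used. Symbols, coordinates and exon lengths came from GENCODE for GRCm38 (55137 of 55397 identifiers matched), and upstream sequences from RefSeq. The members and 15 gene lists were chosen with earlier results of these data known. Members were named, except 1 that is not reported here, with each library's value for the 3 highest per kilobase and the 4 largest changes of each family and the member nearest the minimum. Alternatives were TMM, upper-quartile and total-count scaling, a pseudocount of 0.1 or 10, a minimum mean of 50 or none, limma without trend, edgeR 4.0.16 and DESeq2 1.42.0 on recovered reads, a replicate block, and each library left out.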

Additional observations from a re-analysis of the deposited data

How the results depend on the processing

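Over 16 alternatives and the 45 members, 658 of 718 values kept their direction and their side of the threshold, 48 lost a call, 6 gained one and 6 changed sign. Under total-count scaling the members called lower numbered 7, and Fmo4 had a log2 fold change of -0.18. Fmo1 changed sign by edgeR (0.0135) and DESeq2 (0.0052), and over left-out libraries it ran from -0.12 to 0.14. Adh6b ran from -0.16 to 3.01 over left-out libraries. Over left-out libraries the members called ran from 15 to 34 higher and 3 to 5 lower, and genes called in either direction from 0 to 5 (Adh), 10 to 18 (Aldh), 7 to 13 (Ces) and 1 to 3 (Fmo). The lowest value of each of these family counts came without Control replicate 1, which lost 20 calls and left 1158 of 17105 genes called in place of 5702. The log2 fold change of Prox1 passed the threshold by edgeR (2.36), with the replicate block (2.39) and without Prox1 OE replicate 1 or 3, and ran from 1.12 to 2.39 over left-out libraries. TMM and upper-quartile factors and both pseudocounts changed no call of a member. With a mean of at least 50, Adh6b and Ces2h had no value. The replicate numbers were not taken as pairing, since with 2 pairs the deviations of same-numbered libraries had correlations of 0.14 and 0.016. With the number as a block, 33 members were called higher and 4 lower, and 5246 genes in all. The depth limits the precision for Aldh3a1 and Adh6b, which had libraries at 1 or 2 reads. The cause of the changes in these and the other members was not tested.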

Other observations

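Marker lists of other cells are set beside the 17.1% of all genes called higher and the 16.2% called lower. Of 10 Kupffer cell and macrophage markers, 5 were called higher and 0 lower by limma, with Clec4f and Cd5l at log2 fold changes of 1.58 and 1.39, and of 8 lymphocyte markers tested, 4 were called higher and 0 lower. Of 11 stellate cell and fibroblast markers, 2 were called higher (Lrat and Reln, 1.09 and 0.55) and 3 lower, namely the collagens Col1a1, Col1a2 and Col3a1 (-1.23, -0.95 and -0.66). Of 9 endothelial markers, 3 were called higher and 1 lower. Of 7 adipocyte markers, Lep was at 0 in every library and Adipoq and Plin1 had at most 4 reads in any library, while Cidec, which also coats lipid droplets in fatty liver, had 3251 and 2878 normalised counts in Control and 9575, 9559 and 9195 in Prox1 OE (log2 fold change 1.63, limma adjusted p 0.0014).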
